A study of Mus musculus with 20 samples.

Results

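Across 4 groups of BV-2 microglia, 10 mouse genes were followed whose human counterparts carry Alzheimer disease risk variants and are transcribed in microglia (*Bin1*, *Inpp5d*, *Plcg2*, *Picalm*, *Cd33*, *Abca7*, *Sorl1*, *Grn*, *Ptk2b* and *Abi3*). They were found by matching the Ensembl identifiers of the count matrix to these symbols, and all 10 of 10 were found among 55487 genes. BV-2 is an immortalized microglial line derived from C57BL/6 mouse brain cultures, so every group shares 1 line and 1 mouse strain of origin. Young microglia were low-passage control cultures, and aged microglia were the same line after long-term cultivation. Both were left untreated or exposed to 100 ng/ml lipopolysaccharide (LPS, a bacterial cell wall component that activates toll-like receptor signalling) for 6 hours. Each of the 4 groups held 5 libraries, numbered 1 to 5 by batch, and every batch held 1 culture of each group.

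Most inherited risk for late-onset Alzheimer disease lies in common variants, and many of the genes near them are most active in microglia. The products of the 10 genes act at successive steps of how a microglial cell senses and clears material: cell surface receptors and the phosphoinositide signalling behind them (*Inpp5d*, *Plcg2*, *Cd33*), uptake and sorting of membrane cargo (*Bin1*, *Picalm*, *Sorl1*), lipid export and lysosomal function (*Abca7*, *Grn*), and adhesion and the actin cytoskeleton (*Ptk2b*, *Abi3*). TREM2, with its partner TYROBP, signals through the kinase SYK to phospholipase C gamma 2, and the phosphatase encoded by *Inpp5d* opposes that pathway.

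The stretches before the transcription start of *Inpp5d* and *Cd33*, which fell with LPS, and of *Picalm*, which rose, are shown because each holds GAGGAA, the core of the motif bound by the microglial ETS factor PU.1 (*Spi1*). They were copied from RefSeq (GRCm38.p6) and cover 250 bases each, 5′ to 3′ on the gene's strand, with GAGGAA in capitals.
Inpp5d, chr1:87620062-87620311, plus strand: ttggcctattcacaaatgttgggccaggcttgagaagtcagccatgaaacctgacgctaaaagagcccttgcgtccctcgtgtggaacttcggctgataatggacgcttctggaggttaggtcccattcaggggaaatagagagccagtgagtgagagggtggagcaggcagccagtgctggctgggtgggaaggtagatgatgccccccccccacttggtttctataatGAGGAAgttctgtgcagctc
Cd33, chr7:43533172-43533421, minus strand: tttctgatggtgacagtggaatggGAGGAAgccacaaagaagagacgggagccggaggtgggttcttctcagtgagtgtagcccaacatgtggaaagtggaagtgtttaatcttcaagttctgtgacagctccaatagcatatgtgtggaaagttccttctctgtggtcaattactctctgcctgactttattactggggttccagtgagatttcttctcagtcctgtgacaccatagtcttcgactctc
Picalm, chr7:90129963-90130212, plus strand: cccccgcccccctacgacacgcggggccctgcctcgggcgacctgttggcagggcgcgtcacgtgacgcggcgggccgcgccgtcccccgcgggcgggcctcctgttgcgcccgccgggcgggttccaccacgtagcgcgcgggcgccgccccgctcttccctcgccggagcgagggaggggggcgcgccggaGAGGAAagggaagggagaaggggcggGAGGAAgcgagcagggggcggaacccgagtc

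The match in *Inpp5d* lay 20 to 15 bases before the start, that in *Cd33* 226 to 221 bases before it, and those in *Picalm* 57 to 52 and 31 to 26 bases before it, all on the gene's own strand. For *Cd33* this is a RefSeq start inside the annotated gene (43524216 to 43544428, minus strand). Its stretch therefore lies within the gene body and not before the outermost annotated start. Of the 7 members with a listed start (*Inpp5d*, *Plcg2*, *Picalm*, *Cd33*, *Abca7*, *Sorl1* and *Grn*), 4 held GAGGAA on either strand, against 23.3% of 32851 stretches of the same length before listed starts. Besides the members shown, *Grn* held it, with 2 matches, and was not called with LPS. A stretch of GGGA, any 4 bases and CC, letters shared with NF-kappaB sites, occurred on either strand in 4 of them (*Plcg2*, *Abca7*, *Grn* and the first of 2 starts of *Sorl1*), against 17.6%, and overlapped no GAGGAA there. Members that rose, fell or were not called with LPS therefore held the same 6 letters, and these matches describe sequence only.

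Library totals ran from 11371508 to 16829292 counts, and the smallest member count in any library was 116 (*Cd33*). General microglial and myeloid markers were well measured, with *Csf1r* at means of 631 to 857 CPM (read counts scaled to a common library size after TMM adjustment) and *Spi1* at 246 to 654 CPM over the 4 groups. Of 11 microglial markers, however, *Sall1* was at 0 in every library and the homeostatic markers *P2ry12*, *Cx3cr1* and *Fcrls* averaged at most 1.3 CPM, so the line lacks part of the profile of microglia in brain. Summed microglial markers ranged over 1597 to 2100 CPM in young and 1322 to 1784 CPM in aged untreated libraries, and over 1937 to 2621 and 1625 to 2212 CPM under LPS. These sums overlapped between ages, but single markers moved with the members: of 10 tested, 4 were lower in aged microglia at rest (*Csf1r* at a log2 fold change of -0.44, adjusted p = 0.0132, *Aif1* at -1.15, 2.21e-04, *Spi1* at -0.18, 0.0312, and *Fcrls* at -1.42, 0.00363) and none was higher. Under LPS 4 were lower (*Csf1r*, *Aif1*, *Ptprc* and *Spi1*) and 1 was higher (*Tmem119*). Markers also moved with LPS itself: in young microglia 2 rose (*Ptprc* and *Spi1*) and 4 fell (*P2ry12*, *Tmem119*, *Cx3cr1* and *Fcrls*). In aged microglia the same 2 rose and 2 fell (*P2ry12* and *Tmem119*). The part of these markers in the results was not tested. Markers of neurons, astrocytes, oligodendrocytes, and T and B cells summed to at most 1.78 CPM each in any library. Among the 4 endothelial markers *Flt1* alone was measured above traces (320 to 368 CPM on average) and *Cldn5* was at 0. *Tnf*, a check of the LPS label, rose from 24.5 to 822 CPM in young and from 16.6 to 447 CPM in aged microglia.

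Per kilobase of annotated exon (RPKM, CPM divided by exon length), the members spanned a wide range in young untreated microglia. *Grn* stood highest at 426 ± 40.3 RPKM (SD, n = 5), then *Plcg2* at 121 ± 7.17, *Inpp5d* at 36.6 ± 3.18 and *Sorl1* at 25.8 ± 1.26 RPKM. *Ptk2b* (20.7 ± 1.62 RPKM) and *Bin1* (19.7 ± 0.611) overlapped between libraries, as did *Picalm* (13.1 ± 0.9) with *Abca7* (10.7 ± 1.43), and *Abca7* with *Abi3* (9.36 ± 0.701 RPKM). *Cd33* was lowest at 3.93 ± 0.638 RPKM. Exon length is the union over all annotated transcripts, which lowers RPKM for genes with many isoforms. Under LPS *Ptk2b* moved up to the third place (58.4 ± 2.19 RPKM in young microglia) and *Inpp5d* moved down to the seventh (11.4 ± 1.97 RPKM), while *Grn* and *Plcg2* kept the top and *Cd33* the bottom.

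**Figure D1:**
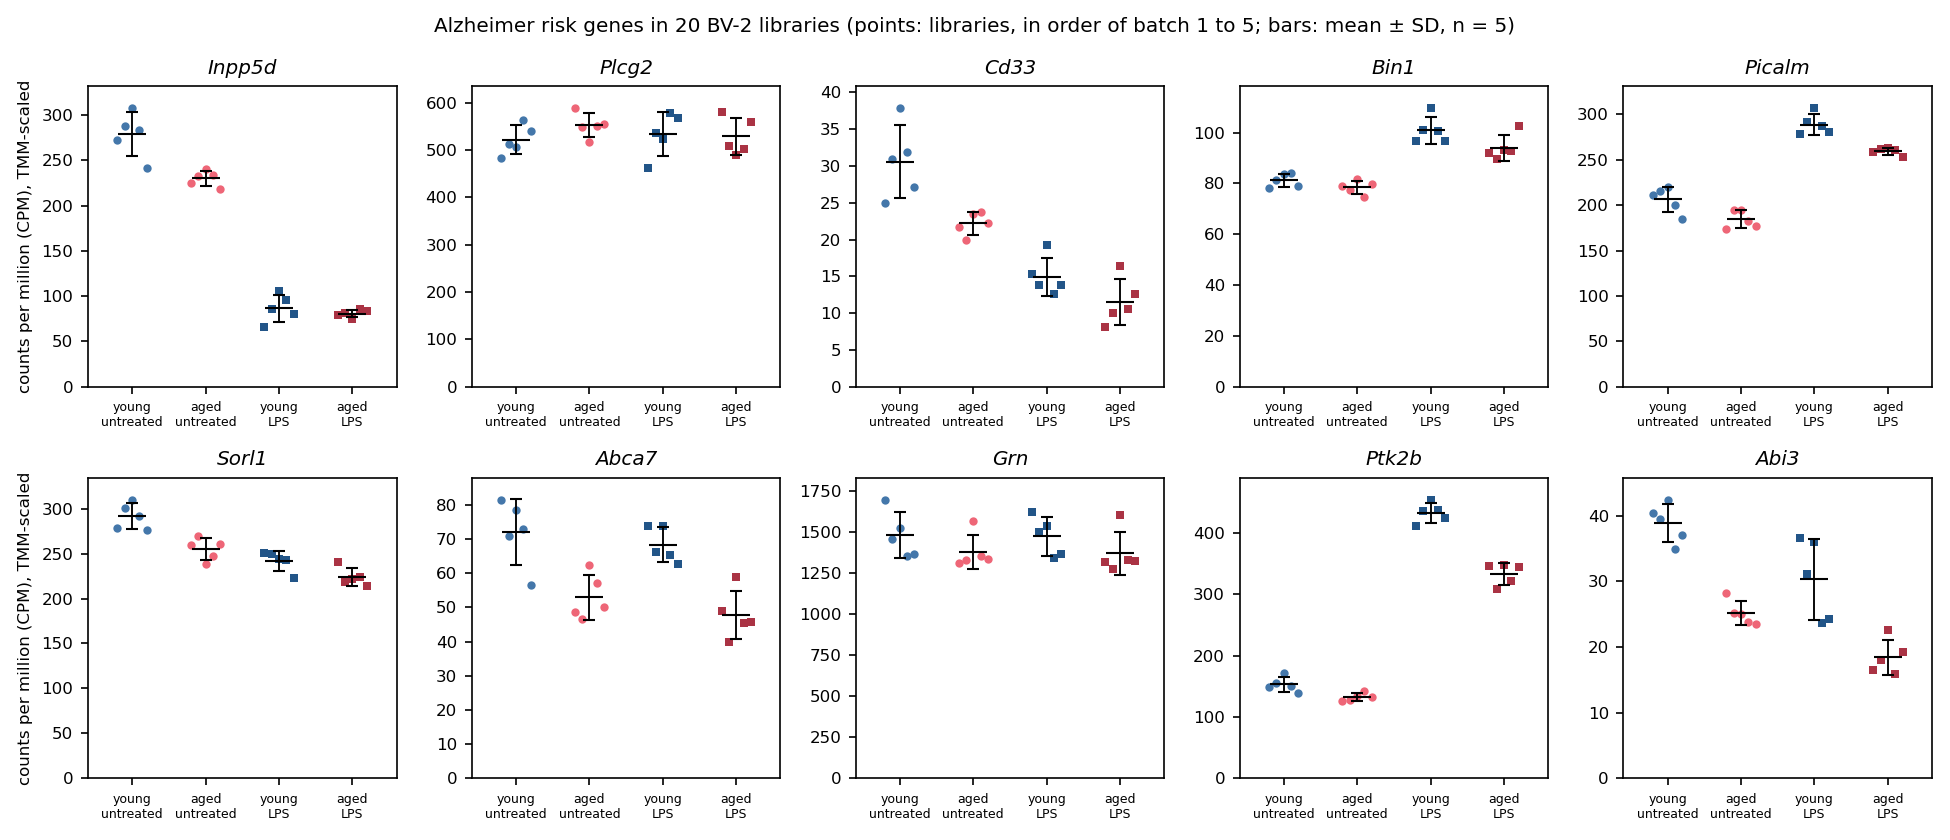
TMM-scaled CPM (vertical axes, from 0) of the 10 genes in each of 20 libraries, grouped by age and treatment, with libraries in order of batch and black bars for mean ± SD (n = 5). *Inpp5d* and *Ptk2b* separate by LPS in opposite directions, *Abca7* and *Abi3* separate mainly by age, and *Plcg2* and *Grn* overlap in all 4 groups.

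The first question was whether these genes differed at rest between long-term and control cultures. The paper states that the aged cells were frozen after cultivation and that experiments drew on these aliquots. The p-values between ages measure the spread between cultures, which may not cover the spread between separate long-term cultivations. In untreated microglia, 7 of 10 members were lower in aged than in young cultures and none was higher (edgeR, adjusted p below 0.05), where 11.5% of 12799 tested genes were called in either direction. *Abi3*, *Cd33* and *Abca7* had the largest reductions, and *Inpp5d*, *Ptk2b*, *Sorl1* and *Picalm* fell by less. All 7 were lower in the aged culture of all 5 batches. In 4 of the 10 members (*Inpp5d*, *Cd33*, *Sorl1* and *Abi3*) the groups did not overlap, as in 10.4% of all tested genes. In bulk RNA, fewer cells expressing a gene and less RNA per cell cannot be told apart. The median log2 fold change of the members was -0.20, against -0.01 over all tested genes. Most of these calls lay near the threshold of this fit, which leaves the batches unpaired. With 1 batch left out of it, 3 to 5 members were called (3 without batch 2 or batch 4, 4 without batch 3). Of the 7, *Abi3* alone kept its call whichever batch was left out. With all batches and the batch number as a block, the same 7 were called. Their edgeR adjusted p then ran from 8.41e-05 (*Abi3*) to 0.0136 (*Inpp5d*).

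LPS moved most of the members in both ages, in both directions. In young microglia *Bin1*, *Picalm* and *Ptk2b* rose and *Inpp5d*, *Cd33*, *Sorl1* and *Abi3* fell, so 7 of 10 were called where 64.6% of all tested genes were. In aged microglia the same 3 rose and the same 4 fell, with 54.4% of all tested genes called. The libraries separated fully in 6 of 10 members at each age, against 49.1% of tested genes in young and 40.1% in aged microglia. The share of members called was thus near that of all genes. In young microglia 8.8% of tested genes changed more than *Ptk2b* in absolute log2 fold change and 7.21% more than *Inpp5d*. No call of the LPS comparisons was lost with any batch left out.

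Under LPS, 4 of 10 members (*Picalm*, *Abca7*, *Ptk2b* and *Abi3*) were lower in aged than in young microglia, where 29% of all tested genes were called, and none was higher. In the same 4 the groups did not overlap, against 14.8% of tested genes. All 10 estimates were below 0, with a median of -0.13 against 0.01 over all genes. *Cd33* missed the threshold (log2 fold change -0.37, adjusted p = 0.0767) but passed it with the batch number as a block (adjusted p = 0.0174) and without batch 3 (adjusted p = 0.0149). *Bin1* passed without batch 5 (adjusted p = 0.0351), and *Picalm* was lost without batch 2, 3 or 4. Comparisons of aged with young microglia and of LPS with untreated share groups, so their values are given side by side.

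A difference in LPS response between the 2 ages was called for none of the 10 members (edgeR interaction test), where 6.39% of tested genes were called. *Ptk2b* alone had an unadjusted p below 0.05 (0.0347, adjusted p = 0.211), with an aged response smaller by 0.17 on the log2 scale (95% confidence interval -0.32 to -0.01). DESeq2 and the fit with the batch block also called none. For *Cd33* the interval of the difference (-0.34 to 0.52) leaves room for a sizeable one. The intervals of *Abi3* (-0.42 to 0.25), *Abca7* (-0.37 to 0.23) and *Inpp5d* (-0.07 to 0.42) were wide as well.

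**Figure D2:**
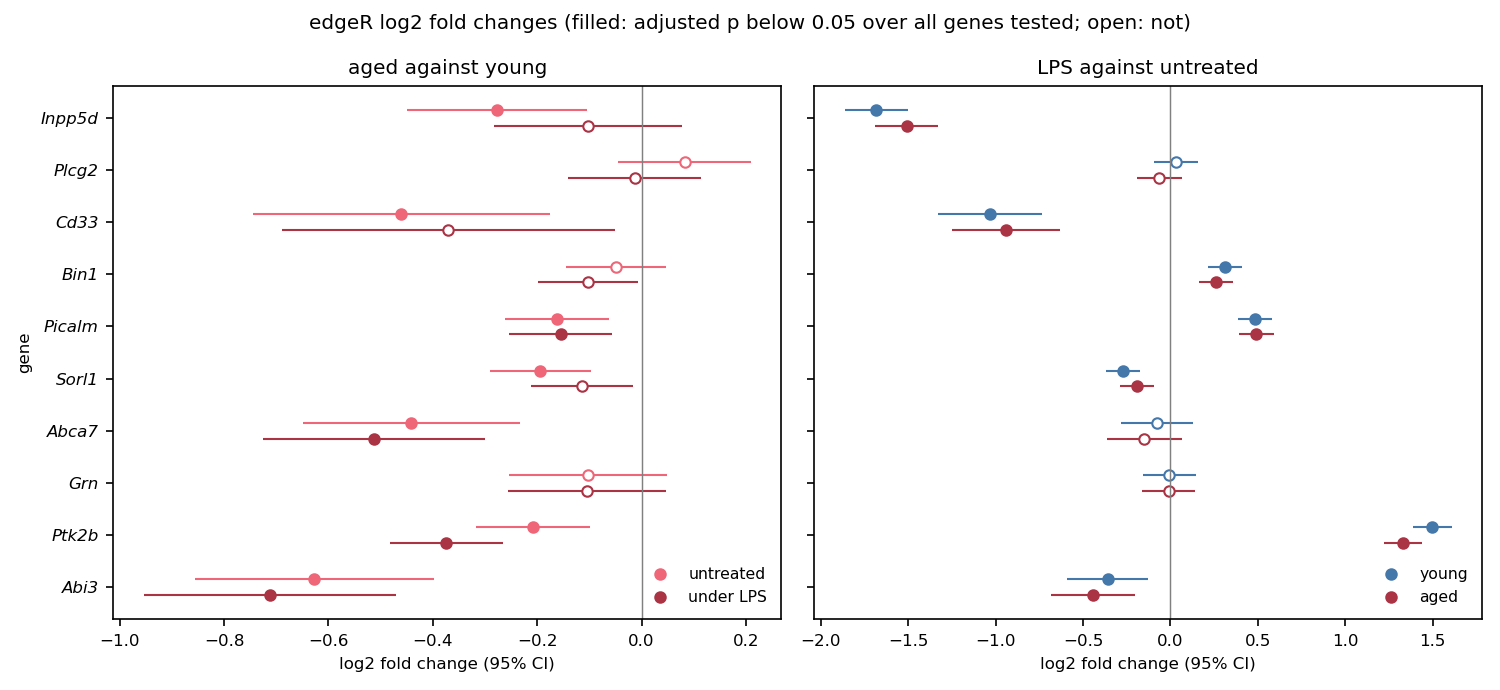
edgeR log2 fold changes with 95% confidence intervals for aged against young microglia (left, untreated and under LPS) and for LPS against untreated (right, young and aged). Filled circles passed an adjusted p of 0.05 over all tested genes. All filled circles on the left lie below 0, and on the right *Ptk2b*, *Picalm* and *Bin1* lie above 0 and *Inpp5d*, *Cd33*, *Abi3* and *Sorl1* below it.

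Among the genes of receptor signalling, *Inpp5d*, which encodes the lipid phosphatase SHIP1, had the largest fall with LPS. It is located on chromosome 1 (GRCm38, 87620312 to 87720507, plus strand). In the order of batches 1 to 5, young untreated libraries held 272, 288, 307, 284 and 242 CPM and aged untreated ones 225, 233, 240, 233 and 218 CPM. Under LPS it was at 66, 86, 105, 95.3 and 80.1 CPM in young and at 79.4, 81, 74.4, 85.5 and 83.8 CPM in aged microglia. Every LPS library lay below every untreated library, and every aged untreated library below every young one, whereas the ages overlapped under LPS. The fall was 3.21-fold in young (log2 fold change -1.68, SE 0.087, edgeR adjusted p = 1.04e-13) and 2.84-fold in aged microglia (-1.51, SE 0.087, adjusted p = 1.24e-12). At rest aged microglia held 1.21-fold less (-0.28, SE 0.083, adjusted p = 0.0329), a call lost without batch 2, 4 or 5 (adjusted p = 0.169, 0.1 and 0.0524). Its closest relative *Inppl1*, which encodes SHIP2 and was at 290 CPM in young untreated microglia, fell by only 0.16 with LPS in young cultures. The log2 ratio of *Inpp5d* to *Inppl1* within a library thus dropped by 1.54 in young and by 1.28 in aged microglia, with no overlap. Across the 20 libraries the profiles most like *Inpp5d* were those of *Mfsd6* (Pearson r = 0.992) and *Dnajb14* (r = 0.987). Such r values of profiles, here and below, span the 4 groups and so include shared changes with LPS and age. After subtracting group means, these 2 genes were at r = 0.65 and 0.56.

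*Plcg2* (chromosome 8, 117498291 to 117635142, plus strand), which encodes the phospholipase that turns phosphoinositides into second messengers downstream of SYK, was the second most abundant member and was called in no comparison with TMM scaling. Young untreated libraries held 484, 513, 508, 564 and 541 CPM and aged untreated ones 588, 550, 518, 552 and 555 CPM. With LPS it was at 462, 537, 524, 578 and 568 CPM in young and at 582, 509, 490, 503 and 560 CPM in aged microglia. All 4 groups overlapped. The 95% intervals of the log2 fold change with LPS ran from -0.09 to 0.16 in young and from -0.19 to 0.06 in aged microglia, and that between ages at rest from -0.04 to 0.21. With library sizes alone for scaling it was lower with LPS (-0.19 in young, adjusted p = 0.0155, and -0.22 in aged, adjusted p = 0.00562). Its paralogue *Plcg1* behaved otherwise: it fell with LPS from 75.4 to 29 CPM in young and from 80 to 39.8 CPM in aged microglia (log2 fold changes -1.38 and -1, adjusted p = 1.17e-15 and 2.79e-13). Counts of *Plcg2* relative to *Plcg1* therefore rose by 1.41 in young and 0.94 in aged microglia on the log2 scale (exact permutation test, adjusted p = 0.0127 each), and were lower by 0.47 in aged than in young microglia under LPS (adjusted p = 0.0127). The profile most like *Plcg2* was that of *Lss* (r = 0.912), which encodes lanosterol synthase.

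*Cd33* (chromosome 7, 43524216 to 43544428, minus strand), a Siglec receptor that binds sialic acids on cell surfaces, was the least abundant member and fell with LPS and with age. In young untreated libraries it was at 25, 30.9, 37.9, 31.9 and 27.1 CPM and aged untreated ones 21.7, 19.9, 23.5, 23.7 and 22.2 CPM. After LPS the values were 15.3, 13.8, 19.2, 12.6 and 13.8 CPM in young and at 8.15, 9.98, 16.4, 10.5 and 12.7 CPM in aged microglia. Untreated and LPS libraries did not overlap at either age. The fall with LPS was 2.04-fold in young (log2 fold change -1.03, SE 0.14, adjusted p = 1.44e-06) and 1.92-fold in aged microglia (-0.94, SE 0.15, adjusted p = 1.17e-05), and aged microglia held 1.38-fold less at rest (-0.46, SE 0.14, adjusted p = 0.0315). The call at rest was lost without batch 2, 4 or 5 (adjusted p = 0.177, 0.0889 and 0.0717). *Siglece*, another Siglec receptor of myeloid cells, went the other way under LPS, from 1.19 to 11.6 CPM in young and from 0.455 to 7.08 CPM in aged microglia. The log2 ratio of *Cd33* to *Siglece* dropped by 4.29 in young microglia (adjusted p = 0.0127). The profiles of *Cd93* (r = 0.955) and *Abcc3* (r = 0.951) were most like that of *Cd33*. Of 5 Siglec genes tested besides *Cd33*, 3 were lower in aged microglia both at rest and under LPS (*Cd22*, *Siglec1* and *Siglece*) and none was higher, with medians of -1 and -0.73. That was 60% called in each, against 11.5% and 29% of all tested genes.

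The other 36 tested genes of TREM2-TYROBP and phosphoinositide signalling gave the surroundings of these members. With LPS 15 rose and 12 fell in young microglia and 16 rose and 14 fell in aged microglia, which became 12 up and 20 down, and 11 up and 16 down, when library sizes alone were used for scaling. With TMM scaling 75% and 83.3% were called, against 64.6% and 54.4% of all tested genes. *Syk*, the kinase below TYROBP, rose most (from 127 to 634 CPM in young, log2 fold change 2.32, adjusted p = 1.35e-15, and 2.01 in aged microglia), and *Rasgrp3*, which is activated by the diacylglycerol that PLCG2 releases, fell most (-2.68 in young and -2.27 in aged). *Trem2* itself fell by 0.72 in young and by 0.67 in aged microglia. Between ages at rest 5 were lower and none higher (13.9% called, against 11.5% of all genes), led by the adaptor gene *Lcp2* (log2 fold change -0.30, adjusted p = 0.039), and with the batch block 9 were lower and 1 higher. Under LPS 14 were lower in aged microglia, among them *Lcp2* (-0.67) and *Tyrobp* (-0.44), and 4 were higher, led by *Plcg1* (0.46), so that 50% were called against 29% of all genes. The median of this list was -0.11 at rest and -0.13 under LPS, beside -0.01 and 0.01 over all genes.

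Of the endocytic members, *Picalm*, a clathrin assembly adaptor on chromosome 7 (90130213 to 90213465, plus strand), rose with LPS and was slightly lower in aged microglia. The young untreated libraries had 211, 215, 220, 200 and 185 CPM and aged untreated ones 173, 194, 195, 183 and 178 CPM. LPS libraries held 278, 292, 307, 287 and 280 CPM in young and at 259, 262, 263, 261 and 253 CPM in aged microglia. Every LPS library exceeded every untreated one, and under LPS every aged library lay below every young one. The rise was 1.40-fold in young (log2 fold change 0.48, SE 0.048, adjusted p = 7.22e-09) and 1.41-fold in aged microglia (0.49, SE 0.048, adjusted p = 1.01e-08). Aged microglia held 1.12-fold less at rest (-0.16, SE 0.048, adjusted p = 0.0305) and 1.11-fold less under LPS (-0.15, SE 0.048, adjusted p = 0.0174), and leaving out any of batches 1 to 4 ended the call at rest (adjusted p = 0.143, 0.118, 0.0663 and 0.0869). With library sizes alone both calls between ages were lost (-0.14, adjusted p = 0.0581, and -0.07, adjusted p = 0.241), as they were with no filter on low counts (adjusted p = 0.113 and 0.0962). *Akap13* (r = 0.990) and *Crybg3* (r = 0.986) had the most similar profiles. *Snap91*, the neuronal relative of *Picalm*, had 0 counts in all libraries.

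*Bin1*, whose product bends membranes through a BAR domain, rose with LPS and was not called between ages. It was at 78.4, 81.4, 83.6, 83.9 and 79.2 CPM in young and at 78.9, 77.5, 81.6, 74.8 and 79.9 CPM in aged untreated libraries. Under LPS these became 96.5, 101, 110, 101 and 96.8 CPM in young and 91.9, 89.5, 93.3, 92.9 and 102 CPM in aged microglia. The rise separated the libraries fully at both ages, at 1.24-fold in young (log2 fold change 0.31, SE 0.046, adjusted p = 3.20e-06) and 1.2-fold in aged microglia (0.26, SE 0.046, adjusted p = 5.36e-05). This call depended on the scaling: with library sizes alone the change was 0.09 (adjusted p = 0.0881) and 0.10 (adjusted p = 0.0771). *Bin2*, the relative that is typical of blood cells, fell from 107 to 55.5 CPM in young and from 102 to 57.7 CPM in aged microglia, so the log2 ratio of *Bin1* to *Bin2* rose by 1.27 and 1.09 and changed sign. *Bin2* had the higher count at rest and *Bin1* under LPS, in every library of all 4 groups. *Fosl2* (r = 0.964) and *Flna* (r = 0.961) were most like *Bin1*.

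*Sorl1* (chromosome 9, 41964720 to 42124297, minus strand), a Vps10p-domain receptor that sorts the amyloid precursor protein between endosomes and the Golgi, was modestly lower with LPS and with age. Counts in young untreated libraries were 279, 301, 310, 292 and 277 CPM and aged untreated ones 260, 269, 238, 247 and 260 CPM. Under LPS the libraries had 251, 250, 243, 243 and 223 CPM in young and at 240, 218, 221, 224 and 214 CPM in aged microglia. Young libraries separated by treatment, while aged ones overlapped. Log2 fold changes were -0.27 with LPS in young (SE 0.047, adjusted p = 2.83e-05), -0.19 with LPS in aged (SE 0.047, adjusted p = 0.00162) and -0.19 between ages at rest (SE 0.047, adjusted p = 0.00912). The call between ages at rest was lost without batch 3 (adjusted p = 0.0946) or batch 4 (adjusted p = 0.0594), and under LPS the ages were not called apart (-0.11, adjusted p = 0.0741), although DESeq2 called them (adjusted p = 0.0425). *Sort1*, another Vps10p receptor, reached at most 8 counts in any library. *Inpp5k* (r = 0.940) and *Iqgap2* (r = 0.937) had the most similar profiles.

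Around these members, 31 tested genes of clathrin endocytosis and membrane curvature split between rises and falls with LPS, with 11 up and 9 down in young and 11 up and 6 down in aged microglia, and falls outnumbered rises with library sizes alone (6 up and 15 down, 3 up and 14 down). The shares called, 64.5% in young and 54.8% in aged, were near the 64.6% and 54.4% of all tested genes. At rest 3 were lower in aged microglia and 1 higher (12.9% called, near the 11.5% of all genes), with 7 lower under the batch block. Under LPS 9 were lower in aged microglia and 3 higher (38.7% called, against 29% of all genes). The clathrin-binding gene *Hip1* fell most (from 220 to 74.4 CPM in young, log2 fold change -1.57, and by 1.17 in aged microglia), and its relative *Hip1r* rose most from a low level (from 1.36 to 3.86 CPM in young, 1.5). *Itsn1*, which encodes an endocytic scaffold, was lower in aged microglia at rest (-0.38, adjusted p = 1.84e-04), and *Sh3kbp1* under LPS (-0.53, adjusted p = 1.48e-04). Of 22 tested genes of endosomal sorting and retromer, 10 rose and 4 fell with LPS in young microglia and 8 rose and 3 fell in aged microglia, against 4 up and 9 down at each age with library sizes alone. With TMM scaling 63.6% and 50% were called, again near the shares of all genes. Between ages at rest 2 of these sorting genes were lower in aged microglia and none higher (9.09% called, against 11.5%). Under LPS 5 were lower and 1 higher (27.3% called, near the 29% of all genes). *App*, the precursor of amyloid beta and a cargo of SORL1, rose from 268 to 545 CPM in young (log2 fold change 1.02, adjusted p = 3.07e-12) and from 234 to 439 CPM in aged microglia (0.91), and was lower in aged than in young microglia at rest (-0.20, adjusted p = 0.0448) and under LPS (-0.31, adjusted p = 7.15e-04). *Adam10*, the alpha-secretase, fell in both (-0.58 and -0.47). *Sorl1* and *App* thus moved in opposite directions with LPS, and at rest both were lower in aged microglia.

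*Abca7* (chromosome 10, 79996494 to 80015572, plus strand), an ABC transporter that moves lipids across membranes, was lower in aged microglia in both treatments and did not pass the test with LPS. Untreated young libraries held 81.5, 71, 78.4, 72.8 and 56.5 CPM and aged untreated ones 48.6, 46.6, 62.4, 57.2 and 50.1 CPM. With LPS the levels were 73.7, 66.1, 73.7, 65.3 and 62.7 CPM in young and at 48.9, 39.9, 58.8, 45.5 and 45.9 CPM in aged microglia. Under LPS every aged library lay below every young one, and at rest the single young library of batch 5 reached into the aged range. The reduction was 1.36-fold at rest (log2 fold change -0.44, SE 0.10, adjusted p = 0.00613) and 1.43-fold under LPS (-0.51, SE 0.10, adjusted p = 5.95e-04). Without batch 1 the change at rest was -0.36 (adjusted p = 0.0515). With LPS its 95% interval was -0.29 to 0.13 in young and -0.36 to 0.06 in aged microglia, and with library sizes alone it was lower (-0.30 and -0.31, adjusted p = 0.00939 and 0.00959). *Abca1*, the cholesterol exporter of the same family, was lower in aged microglia by a similar amount (-0.41 at rest and -0.41 under LPS) but rose with LPS by 0.95 at both ages. The ratio of the 2 transporters accordingly dropped with LPS (by 1.02 and 1.11, adjusted p = 0.0127 each), while between ages its difference was not resolved (-0.02 at rest and -0.11 under LPS, adjusted p = 0.952 and 0.508). *Wdr11* (r = 0.925) and *Ttc9* (r = 0.908) were most like *Abca7*.

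Among 12 tested genes of ABCA transport and lipid efflux, 4 were lower and 1 higher in aged microglia at rest (41.7% called, against 11.5% of all tested genes). Under LPS 5 were lower and 2 higher (58.3% called, against 29%). *Apoe*, which encodes the main lipid carrier of the brain, had the largest reduction, from 2929 ± 551 to 1684 ± 217 CPM at rest (log2 fold change -0.80, adjusted p = 0.00254) and from 2197 ± 537 to 1212 ± 274 CPM under LPS (-0.86, adjusted p = 3.49e-04). *Abca5* was higher (0.32 and 0.52). With LPS *Abca9* fell most (-1.69 in young and -1.89 in aged microglia). The list's median was -0.22 at rest and -0.37 under LPS.

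*Grn* (chromosome 11, 102430315 to 102437048, plus strand), which encodes progranulin, a secreted protein that is cut into granulins in lysosomes, was the most abundant member and was called in no comparison with TMM scaling. Before LPS, young libraries held 1697, 1459, 1528, 1355 and 1367 CPM and aged untreated ones 1314, 1328, 1566, 1354 and 1336 CPM. LPS-treated libraries were at 1622, 1503, 1539, 1343 and 1367 CPM in young and at 1319, 1278, 1602, 1330 and 1325 CPM in aged microglia. Each culture pair of one age and batch lay close together whether or not LPS was added, and the young pair of batch 1 and the aged pair of batch 3 stood above the others. The log2 fold change with LPS was -0.01 at both ages, with 95% intervals of -0.16 to 0.14 in each, and between ages it was -0.10 at rest (-0.25 to 0.05) and -0.11 under LPS (-0.26 to 0.05). With library sizes alone the changes with LPS were -0.23 (adjusted p = 0.00467) and -0.17 (adjusted p = 0.0337). Without batch 3 the difference at rest was -0.14 (adjusted p = 0.223). *Psap*, which encodes prosaposin, a lysosomal partner of progranulin, fell with LPS from 2568 to 2050 CPM in young and from 2228 to 1818 CPM in aged microglia. Of the 18 tested genes of progranulin partners and lysosome, 4 were lower in aged microglia at rest and 7 under LPS, led in both by the cathepsin gene *Ctsh* (-0.75 and -0.69), with none and 2 higher (22.2% and 50% called, against 11.5% and 29% of all tested genes). LPS raised 5 and lowered 5 at each age (3 and 8 in young and 4 and 6 in aged microglia with library sizes alone), with the protease inhibitor gene *Slpi* rising most (3.82 in young, from 1.89 to 26.5 CPM) and *Tfeb*, a regulator of lysosomal genes, falling most (-1.66 in young and -1.26 in aged). With TMM scaling 55.6% were called at each age, against 64.6% in young and 54.4% in aged microglia over all tested genes.

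*Ptk2b* (chromosome 14, 66153257 to 66281052, minus strand), which encodes the calcium-responsive kinase PYK2 of the focal adhesion kinase family, had the largest rise with LPS. Untreated young microglia had 150, 156, 171, 151 and 138 CPM and aged untreated ones 127, 128, 134, 142 and 132 CPM. After 6 hours of LPS it was at 411, 436, 454, 437 and 424 CPM in young and at 346, 308, 348, 321 and 345 CPM in aged microglia. No LPS library came near an untreated one, and under LPS the ages did not overlap. The rise was 2.82-fold in young (log2 fold change 1.5, SE 0.053, adjusted p = 2.00e-16) and 2.52-fold in aged microglia (1.33, SE 0.053, adjusted p = 2.59e-15). Aged microglia held 1.15-fold less at rest (-0.21, SE 0.053, adjusted p = 0.0129, lost without batch 2 or 3 at 0.0974 and 0.0592) and 1.30-fold less under LPS (-0.37, SE 0.052, adjusted p = 1.20e-05). Its paralogue *Ptk2* ran against it in every comparison: it was higher in aged microglia (0.26 at rest and 0.35 under LPS) and fell with LPS (-0.42 in young and -0.32 in aged). The log2 ratio of *Ptk2b* to *Ptk2* was 2.14 ± 0.15 in young and 1.69 ± 0.13 in aged microglia at rest, and 4.06 ± 0.15 and 3.33 ± 0.15 under LPS. All 4 differences separated the libraries fully (exact permutation test, adjusted p = 0.0127 each). With the batches kept as pairs, each had p = 0.0625 (exact sign-flip test), the lowest value that test allows. *Rhbdf2* (r = 0.996) and *Aff1* (r = 0.995) had the most similar profiles.

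Of 23 tested genes of focal adhesion kinase signalling, 13 rose and 5 fell with LPS in young and 15 rose and 5 fell in aged microglia. That was 78.3% and 87% called, against 64.6% and 54.4% of all tested genes. The medians were 0.51 and 0.46, beside -0.011 and 0.00051 over all genes. Scaling by library sizes alone moved the median of all genes by -0.22 and -0.16. *Src*, a kinase that binds PYK2, rose from 6.87 to 124 CPM in young (log2 fold change 4.17, adjusted p = 2.96e-14) and from 3.07 to 43.5 CPM in aged microglia (3.81). The scaffold gene *Nedd9* fell most (-1.46 and -0.93). Between ages 6 were lower and 2 higher at rest (34.8% called, against 11.5% of all tested genes). Under LPS 11 were lower and 6 higher (73.9% called, against 29%). The scaffold gene *Bcar1* was higher in aged microglia (1.03 at rest and 1.04 under LPS).

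*Abi3* (chromosome 11, 95830074 to 95842476, minus strand), which encodes an Abl interactor that joins the WAVE complex of actin nucleation, had the largest difference between ages among the members. Levels in young untreated libraries were 40.4, 39.4, 42.4, 34.9 and 37.1 CPM and aged untreated ones 28.3, 25.2, 25.1, 23.8 and 23.5 CPM. LPS brought it to 36.6, 31.2, 36.1, 23.7 and 24.2 CPM in young and at 16.4, 18, 22.6, 15.9 and 19.3 CPM in aged microglia. Aged libraries lay below all young libraries of the same treatment, and young LPS libraries of batches 4 and 5 lay apart from the other 3. Aged microglia held 1.54-fold less at rest (log2 fold change -0.63, SE 0.11, adjusted p = 7.50e-04) and 1.64-fold less under LPS (-0.71, SE 0.12, adjusted p = 7.49e-05). LPS lowered it 1.28-fold in young (-0.36, SE 0.11, adjusted p = 0.00699) and 1.36-fold in aged microglia (-0.44, SE 0.12, adjusted p = 0.00249). Its counts are uncertain, because 70.1% of its exon length overlaps exons of *Zfp652* and 41.1% those of *Phospho1* on the opposite strand, and whether counting used strand is not stated in the sources used here. *Zfp652* (31.8 to 86.2 CPM) was not called between ages at rest (-0.16, adjusted p = 0.0935), was higher in aged microglia under LPS (0.27, adjusted p = 0.00272) and fell with LPS by more than *Abi3* (-1.1 in young). *Gngt2*, which shares 5.63% of the exon length, was lower in aged microglia (-0.62 and -0.67). The part of these genes in the counts of *Abi3* was not tested.

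Against its relative *Abi1*, a general WAVE subunit, *Abi3* was lower by 0.53 in aged microglia at rest on the log2 scale (adjusted p = 0.0127), and the ratio dropped by 1.2 with LPS in young and by 1.02 in aged microglia, since *Abi1* rose (0.83 and 0.57). Under LPS the age difference of the ratio did not pass (-0.35, adjusted p = 0.0693). *Selenop* (r = 0.968) and *Apoe* (r = 0.963) had the profiles most like *Abi3*. Among 22 other genes of the WAVE complex and actin nucleation, 11 rose and 3 fell with LPS at each age, with the small GTPase gene *Rac2* rising most (0.90 in young and 0.81 in aged) and *Wasf1* falling most (-1.43 and -0.90). That was 63.6% called at each age, against 64.6% and 54.4% of all tested genes. The list's medians with LPS were 0.14 and 0.12. Scaling by library sizes alone moved the median of all genes by more, -0.22 and -0.16. At rest 1 was lower (*Rac2*, -0.20) and 1 higher in aged microglia (*Nckap1*, 0.46), a share of 9.09% against 11.5% of all tested genes, with 5 lower under the batch block. Under LPS 9 were lower, among them *Nckap1l* (-0.38, adjusted p = 9.45e-04), the hematopoietic WAVE subunit, and 3 were higher (54.5% called, against 29%).

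**Figure D3:**
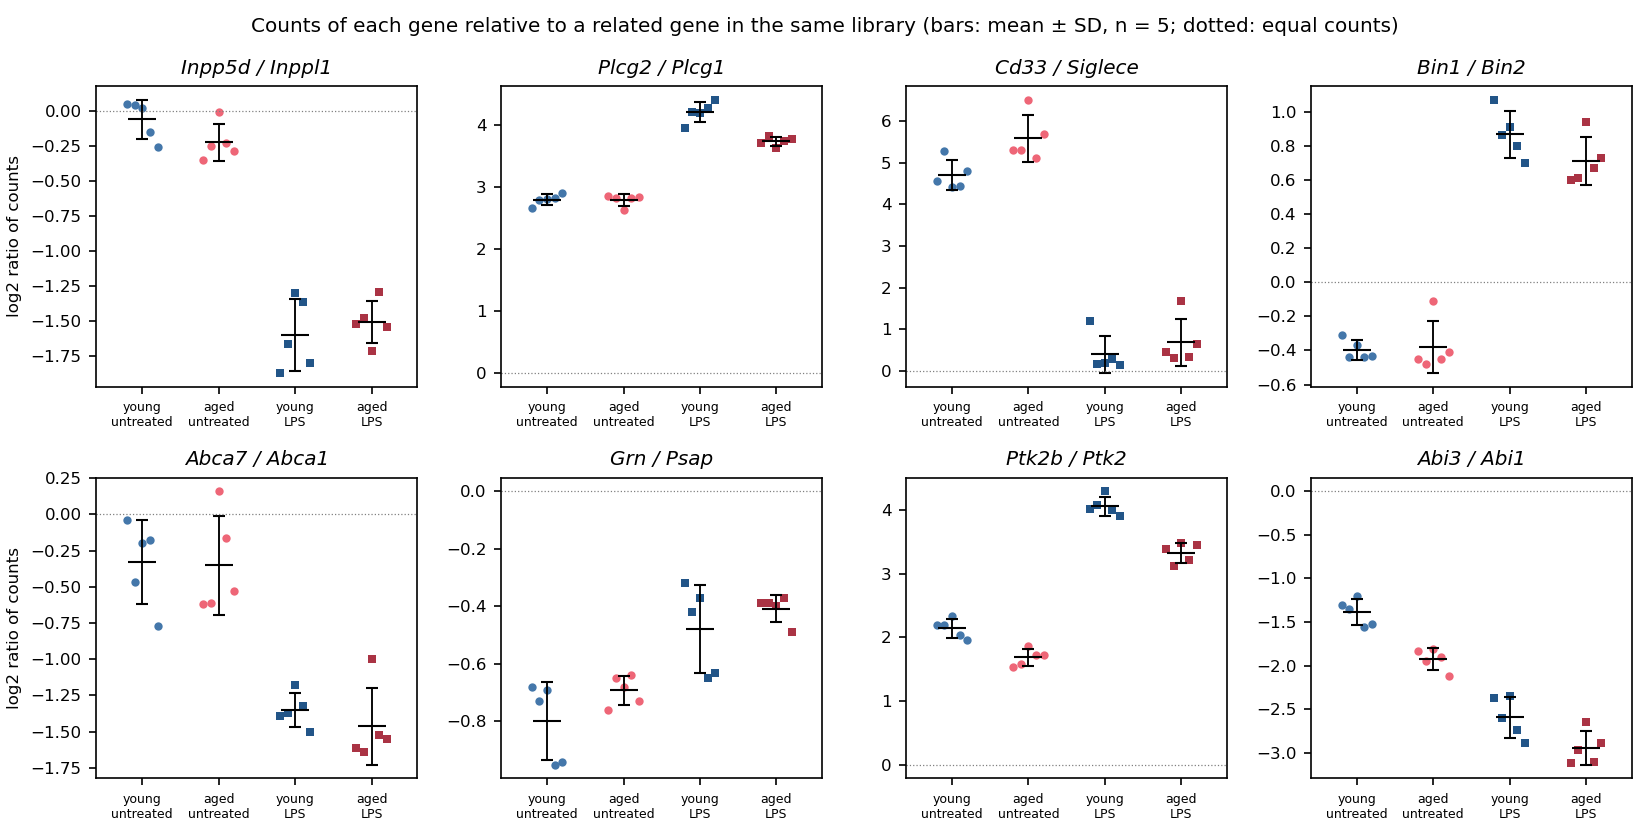
Log2 ratio of the counts of each member to those of a related gene in the same library (vertical axes, one panel per pair, not starting at a common value), by group, with mean ± SD (n = 5) and a dotted line at equal counts. With LPS *Plcg2*, *Bin1* and *Ptk2b* gained on their relatives and *Inpp5d*, *Cd33*, *Abca7* and *Abi3* lost, while *Grn* gained 0.32 and 0.28 on *Psap*.

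The related genes were chosen for kinship or partnership after the values of the members had been seen. For each of 8 pairs, the ratio was compared in 4 ways by an exact two-sided permutation test with Benjamini-Hochberg adjustment over 32 comparisons. All 16 changes with LPS gave the smallest p that 5 against 5 freely exchanged libraries allow (0.00794, adjusted p = 0.0127). With the batches kept as 5 pairs an exact test cannot go below 0.0625, the value of all 16, and each change had 1 direction in all 5 batches. A ratio within a library shows unequal change of 2 genes and does not depend on the scaling between libraries.

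How much of the variation of each gene fell to LPS, age and the spread within groups differed widely. LPS took 95.8% of the sum of squares of log2 CPM for *Inpp5d*, 94.7% for *Ptk2b*, 85.6% for *Picalm*, 81.3% for *Bin1*, 72.2% for *Cd33* and 56.7% for *Sorl1*. Age took 66.9% for *Abca7* (LPS 3.5%) and 59.7% for *Abi3* (LPS 23.4%). It also exceeded LPS in *Grn* (18.5% against 0.109%) and *Plcg2* (3.58% against 0.867%). In *Plcg2* and *Grn*, however, 89.1% and 81.4% lay within groups. The share of the interaction reached at most 6.44%, in *Plcg2*.

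**Figure D4:**
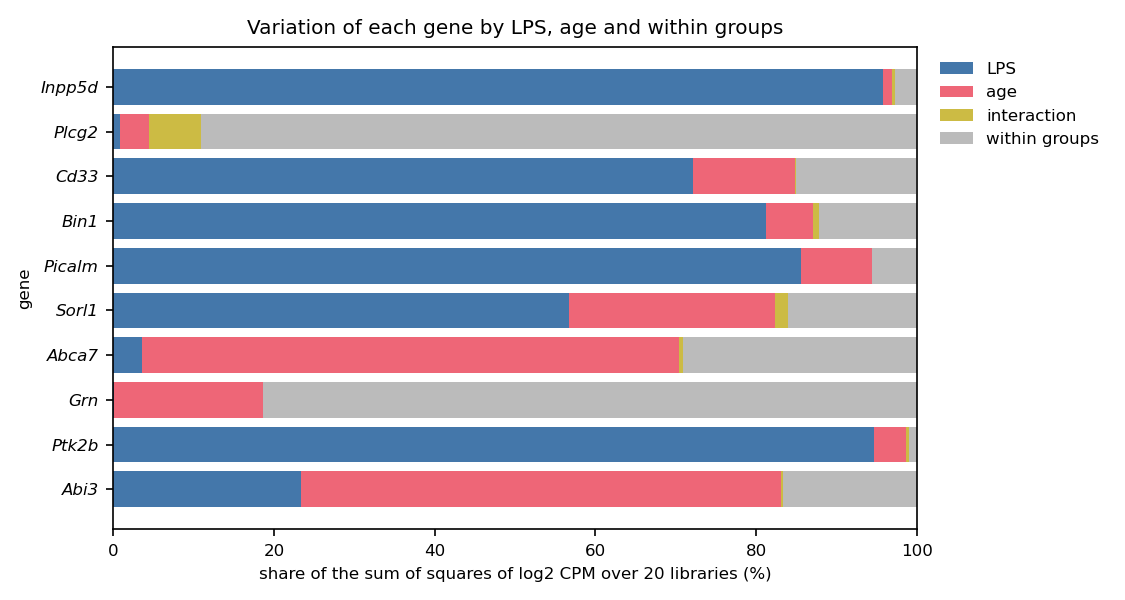
Share of the sum of squares of log2 CPM over 20 libraries (horizontal axis, %) that fell to LPS, age, their interaction and the spread within groups, for each gene. LPS dominates in *Inpp5d*, *Ptk2b*, *Picalm*, *Bin1* and *Cd33*, age in *Abca7* and *Abi3*, and the spread within groups in *Plcg2* and *Grn*.

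Within groups some members varied together from culture to culture. After subtracting group means, *Grn* ran with *Abca7* (Pearson r = 0.82 over 20 libraries) and *Abi3* (r = 0.67) and against *Plcg2* (r = -0.78). *Inpp5d* ran with *Picalm* (r = 0.62), and *Cd33* with *Abi3* (r = 0.62). These values are descriptions, since libraries that share a batch are not independent points. Libraries with high *Grn* and low *Plcg2* were the young ones of batch 1 and the aged ones of batch 3. With group means subtracted, *Lss* still tracked *Plcg2* (r = 0.94). For other members, the gene named first as most alike had a lower r within groups than over all libraries. It was 0.85 for *Picalm*, 0.82 for *Abca7* and *Abi3*, 0.72 for *Ptk2b* and 0.71 for *Cd33*. For *Bin1*, *Inpp5d* and *Sorl1* it was 0.69, 0.65 and 0.59.

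**Figure D5:**
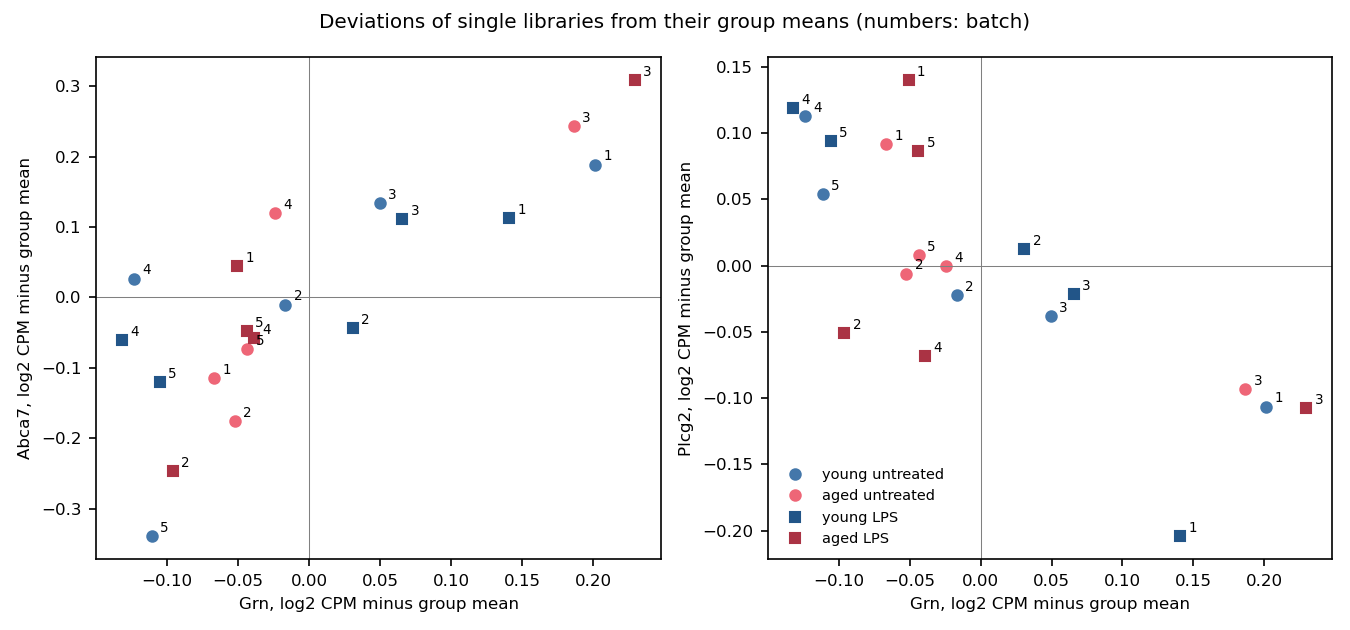
Log2 CPM of *Abca7* (left) and *Plcg2* (right) against *Grn*, each as the deviation of a library from its group mean, with batch numbers beside the points. High *Grn* goes with high *Abca7* (r = 0.82) and low *Plcg2* (r = -0.78). In *Grn*, untreated and LPS libraries of the same age and batch lie near each other, and in *Abca7* some such pairs lie apart.

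Mouse orthologues of other human Alzheimer risk genes were counted in the same way. Of 47 tested, 10 were lower and 2 higher in aged microglia at rest (25.5% called, median -0.14), where 7.81% of all tested genes were lower, 3.71% higher and the median was -0.01. Under LPS 20 were lower and 6 higher (55.3% called, median -0.15), or 17 and 11 with library sizes alone, where 15% of all genes were lower, 14% higher and the median was 0.01. Lower calls outnumbered higher ones at rest over all genes too. The genes of the membrane-spanning 4A family *Ms4a6c* (from 1.99 to 0.826 CPM, log2 fold change -1.25, adjusted p = 0.0329) and *Ms4a6d* (from 6.18 to 2.91 CPM, -1.07, adjusted p = 0.00996) had the largest reductions at rest, and *Celf1* (0.16) and *Hbegf* (0.44) were higher. Under LPS *Ms4a6c* (-2.19) and *Ms4a6d* (-1.81) were again lowest, and *Usp6nl* (0.32) and *Tpcn1* (0.33) higher. With LPS 22 rose and 13 fell in young and 22 rose and 14 fell in aged microglia, and library sizes alone gave 18 up and 20 down in young. With TMM scaling 74.5% and 76.6% were called, against 64.6% and 54.4% of all tested genes. The receptor genes *Pilra* (4.38 in young and 4.46 in aged) and *Lilrb4a* (2.94 and 2.78) rose most, and the transcription factor gene *Mef2c* (-1.89 and -1.57) and *Echdc3* (-1.33 and -0.87) fell most. *Spi1*, which encodes PU.1, rose with LPS (1.23 in young and 1.14 in aged) and was lower in aged microglia (-0.18 at rest, adjusted p = 0.0312, and -0.27 under LPS). As drawn up, this list shares *Apoe*, *Abca1*, *Ctsh*, *Ctsb*, *Ctsl*, *Tmem106b*, *Trem2*, *Blnk*, *Cd2ap*, *Rin3*, *Adam10*, *Snx1* and *Cass4* with lists given above. The counts of these lists are therefore not independent.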

How the data were processed

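Poly(A) RNA of 20 BV-2 cultures was sequenced as stranded paired-end libraries. The authors aligned reads to GRCm38 with STAR (2.6.1d), counted them per Ensembl gene with featureCounts (1.5.1) and deposited raw counts. Strand and multi-mapping settings are not given in the sources used here, so overlapping genes are uncertain. Groups came from the sample titles, and the labels give each library a batch, equal to its replicate number. The study calls the cultures independent replicates but does not say whether the aged ones came from separate long-term cultivations.

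edgeR (version 4.0.16, in R 4.3.3) fitted its quasi-likelihood model to the deposited counts, with 1 coefficient per group over the 20 libraries, TMM scaling and filterByExpr, which kept 12799 genes. Contrasts were tested by its F-test, and p-values were Benjamini-Hochberg adjusted over all of them at 0.05. CPM used TMM-scaled totals, RPKM the union exon length, log2 CPM a prior count of 2, and ratios a pseudocount of 0.5. A count of 3 equals 0.178 to 0.264 CPM, which covers counting error only.

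The members and lists were chosen with earlier results of these data known. Besides members, genes named were the largest rise and fall called per list and comparison, averaging 1 log2 CPM or more (2 each for other risk genes), and the 2 genes most correlated with each member. Some genes that this rule names are not reported here. *Trem2*, *Tyrobp*, *Spi1*, *Cd22*, *Siglec1*, the related genes, overlapping genes and markers fall outside that rule and were partly chosen after values were seen. Related genes and their ratios were added after seeing the data.

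The label's batch number pairs the cultures: same-numbered untreated and LPS libraries of one age deviated together (mean r = 0.276 in young and 0.26 in aged), those of the 2 ages at rest less so (0.111). Alternatives were DESeq2 (1.42.0), the batch block in both tools, RLE or library-size scaling, no filter, at least 10 counts in every library, only the groups compared, stricter thresholds and each batch left out. Figures were drawn with matplotlib 3.10.9 under Python 3.11.15.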

Additional observations from a re-analysis of the deposited data

Results flagged for a closer look

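Among 40 sets of 5 libraries (10 members in 4 groups), 4 held a library far from the others by Dixon's test, where chance alone gives about 1 in 20. *Grn* was highest in the aged libraries of batch 3, both untreated (1566 CPM, the others 1314 to 1354) and with LPS (1602 CPM, the others 1278 to 1330). *Bin1* was highest in the aged LPS library of batch 5 (102 CPM, the others 89.5 to 93.3), and *Sorl1* lowest in the young LPS library of batch 5 (223 CPM, the others 243 to 251).

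The LPS response differed between ages in 6 genes, each the called gene with the largest difference in its list (edgeR interaction test). None was called in the lists of endosomal sorting, Siglec receptors and focal adhesion kinase signalling. In the other lists 3.23% (clathrin endocytosis) to 11.1% (TREM2-TYROBP signalling) were called, against 6.39% of all tested genes. The difference, aged minus young on the log2 scale, was -0.42 for the kinase gene *Prkcd* (adjusted p = 0.0148), -0.55 for the intramembrane protease gene *Sppl2a* (1.36e-04), 0.39 for *Hip1* (0.00373), 0.33 for *Tmem106b* (0.0285), 0.36 for *Abca2* (0.0417) and 0.29 for *Abi2* (0.0349). *Prkcd* and *Sppl2a* rose less in aged microglia, from 139 to 188 and from 93.2 to 153 CPM, than in young, from 155 to 282 and from 104 to 250 CPM. *Hip1*, *Tmem106b*, *Abca2* and *Abi2* fell less in aged microglia.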

How the results depend on the processing

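Of 740 alternative values for the fold changes of the members, 660 kept direction and side of the threshold, 47 lost their call, 13 gained one and 20 changed sign, all 20 from estimates that were not called. With 1 batch left out, members called numbered 3 to 5 between ages at rest. A threshold of 0.01 left 3 there. A log2 fold change of at least 0.5 left 1 at rest, 3 with LPS in young, 3 with LPS in aged and 2 between ages under LPS. With the replicate block, 5 members were called between ages under LPS in place of 4 (*Cd33* at adjusted p = 0.0174), and the block changed no other call of a member. Scaling by library sizes alone moved the median of all genes by -0.22 with LPS in young and by -0.16 in aged microglia, and the share of higher calls from 48.2% to 27.3% and from 50.6% to 28.4%. Between ages under LPS it moved that share from 48.3% to 70.1%, and for the interaction from 64.4% to 81.3%. *Plcg2* was then at -0.19 and -0.22, *Grn* at -0.23 and -0.17 and *Abca7* at -0.30 and -0.31 with LPS, all called, *Plcg2* was at 0.07 between ages under LPS (not called), *Inpp5d* (adjusted p = 0.0585) and *Picalm* (0.0581) lost their calls at rest, *Picalm* (0.241) also under LPS and *Bin1* (0.0881 and 0.0771) with LPS.

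Other changes of sign were *Grn* with LPS in young (DESeq2 0.0057, with the block 0.0059, RLE 0.0094), and in the interaction *Bin1* (0.0065) and *Grn* (0.06) with library sizes alone, *Grn* without a filter (0.0053), and *Picalm* at -0.01 with DESeq2, with its block and with RLE. With 1 batch left out, values ran from -0.03 to 0.0014 for *Grn* with LPS in aged, from -0.17 to 0.0058 for *Inpp5d* and from -0.09 to 0.03 for *Plcg2* between ages under LPS, and in the interaction from -0.03 to 0.03 for *Picalm*, -0.03 to 0.26 for *Cd33*, -0.02 to 0.02 for *Grn* and -0.18 to 0.06 for *Abi3*. The same range was -0.05 to 0.04 for the ratio of *Plcg2* to *Plcg1*, -0.04 to 0.06 for *Bin1* to *Bin2* and -0.12 to 0.12 for *Abca7* to *Abca1* at rest, and -0.02 to 0.54 for *Cd33* to *Siglece* under LPS, none of which was called.

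Over all genes, calls at rest went from 1475 to 548 without batch 2, 2221 with DESeq2 and the block, 622 at 0.01 and 475 at a log2 fold change of 0.5. Under LPS they went from 3717 to 2156 without batch 2, 2333 at 0.01 and 1289 at 0.5, and with LPS from 8270 to 4497 in young and 6968 to 3239 in aged at 0.5. For the interaction they went from 818 to between 189 (without batch 2) and 1350 (DESeq2 with the block). The causes were not tested. The 95% intervals in the text bound what 5 libraries a group could resolve.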
